A study of Mus musculus with 6 samples.

Results

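B16 cells, a mouse melanoma line, were compared after cyclic and after chronic hypoxia, each followed by 1 h of reoxygenation. The comparison is that of 2 arrays among the 6 of the series, chosen by their sample titles, and every ratio below is cyclic over chronic. Cyclic hypoxia was 3 periods of 1 h at less than 1% oxygen with 30 min of reoxygenation between them, and chronic hypoxia was 3 h without a break. The remaining arrays hold cyclic hypoxia, chronic hypoxia and 3 h of normoxia taken as the exposure ended, and normoxia taken 1 h later. All cells had been moved to serum-free medium 2 h before the exposure, so every group shares that treatment, and each array was made from 5 µg of total RNA. Cyclic exposure took longer in all because of its breaks, and the labels do not say whether normoxia was timed to match. There was 1 array per group, from 1 cell line, so no difference here has an error of its own and no test was made. The number of arrays limits the precision of every value.

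Cells sense a lack of oxygen mainly through HIF, a transcription factor whose alpha subunit is hydroxylated and degraded while oxygen is present. Under hypoxia HIF raises genes of glucose uptake, glycolysis, angiogenesis and feedback on the oxygen sensors, and its alpha subunit is destroyed again when oxygen returns. Reoxygenation also brings oxidants, to which cells respond through NRF2, a transcription factor of thioredoxin, glutathione and heme metabolism, and growth or stress signals switch on immediate-early genes such as Fos, Egr1 and Myc.

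The values are array signals in units on a linear scale, and values under 2.1 were set to 2.1 before log2 was taken. Each gene was represented by the probe set of highest mean signal among those that name that gene alone, which gave 12393 genes. The 3573 genes with a mean signal of 100 or more over the 6 arrays form the set described below unless stated otherwise. That mean includes both compared arrays, so a gene can pass the limit through the array in which it is high. The genes nearest to that limit were Brcc3 (mean signal 100.1) inside and Cnppd1 (99.97) outside. A gene is counted as higher or lower when the cyclic and chronic values differ 2-fold or more. The closest genes to that threshold were Armc1 inside and Cnep1r1 outside among lower genes (log2 ratios of -1.0004 and -0.999), and Ubfd1 inside and Abhd12 outside among higher genes (1.0008 and 0.991).

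The array after cyclic hypoxia and reoxygenation stood furthest from the others. Averaged over the other 5 arrays, its correlation across genes was 0.917, against 0.953 to 0.961 for the rest, and it had the lowest median signal, 15.9 units, against 19.3 units after chronic hypoxia and reoxygenation. The ratio of 3' to 5' signal was 1.17 in the cyclic and 1.25 in the chronic array for Actb, and 0.845 and 0.848 for Gapdh. Control transcripts that are added to the RNA read higher in the cyclic array by 0.49 to 1.01 on the log2 scale, and controls added at hybridisation read lower by values between -0.72 and -0.26. The part of these differences in the results below was not tested. Defining genes of the melanocyte lineage were bright in both arrays: Tyr had 2312 units in the cyclic array and 2419.9 in the chronic array, Dct had 6557 and 7144, and Pmel had 4626 and 4430.3. Of the listed markers of fibroblasts, leukocytes, endothelium and keratinocytes, 0 reached a mean signal of 100, and their summed signals over the 6 arrays were 33.1 to 63.0, 77.6 to 111, 26.7 to 54.4 and 23.3 to 37.9 units.

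Far more genes were lower than higher after cyclic hypoxia. There were 18 genes higher (0.504%) and 334 lower (9.35%), with 2 and 128 of them past 3-fold, and 0 and 52 past 4-fold. The median ratio of all 3573 genes was nevertheless 0.05 on the log2 scale, with an SD across genes of 0.61 and 54.5% of genes above 0. A pseudocount of 16 units in place of the floor left 9 genes higher and 282 lower. The distribution thus had a long lower tail: its 5th percentile was -1.35 and its 95th 0.63. For scale, cyclic and chronic hypoxia at the end of the exposure, on 2 other arrays, differed at 5 genes higher (0.14%) and 36 lower (1.01%), with an SD of 0.33. The later and the earlier normoxia arrays, which also lie 1 h apart, differed at 0 genes higher (0%) and 1 lower, Mrpl33 (0.028%), with an SD of 0.21.

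The tail was widest among dimmer genes. Of 1402 genes with a mean signal of 100 to 200, 12.8% were lower, of 1015 between 200 and 400 10.2%, of 611 between 400 and 800 6.22%, and of 545 brighter genes 2.20%. Among the bright genes that were lower were Mitf, the master regulator of the melanocyte lineage (-1.81), and Hsp90aa1, a cytosolic chaperone (-1.44).

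In most lower genes it was the cyclic array that left the range of the others. Of the 334, the cyclic value lay below all 4 other arrays in 317 genes, and the chronic value above all 4 in 122. Over these genes the median distance from the median of the other 4 arrays was -1.25 for the cyclic and 0.16 for the chronic array. Among all 3573 genes the cyclic value was below the other 4 in 1070 and the chronic value above them in 578. Against the later normoxia array, the cyclic value was 2-fold or more lower in 234 of the 334 genes (70.1%), and the chronic value 2-fold or more higher in 21 (6.29%). A gene with a low ratio must have a low cyclic or a high chronic value, so these counts say which of the arrays carried it and are not a separate result. Of the 18 higher genes, the cyclic value was above the other 4 in 16 and the chronic value below them in 10.

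Among gene lists with 5 or more genes in the set, targets of HIF had the lowest median. Of 16 listed HIF targets outside glycolysis, 9 were lower and 0 higher, where 9.35% of all genes were lower, and their median was -1.34, against 0.05 over all genes. These 9 differed from the bulk of the lower genes in where the arrays stood. The chronic value was 2-fold or more above later normoxia in 7 of them, and the cyclic value was within 2-fold of later normoxia in 8. In bulk RNA, fewer cells with a transcript and less of it per cell cannot be told apart.

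Ero1a, the oxidase that forms disulfide bonds in the endoplasmic reticulum, had 203 units in the cyclic array, 1223 in the chronic array and 264 in the later normoxia array, and 509, 1367 and 209.7 at the end of cyclic hypoxia, of chronic hypoxia and of normoxia. Its ratio was -2.59, a 6.01-fold lower signal, and the cyclic array lay with normoxia while the chronic array stayed near its level at the end of hypoxia. Other probe sets of Ero1a gave -1.80 and -0.37. At the latter the cyclic array did not lie with normoxia, with 487 units against 312 in later normoxia. Ddit4, an inhibitor of mTORC1, had 143, 656 and 126 units in the cyclic, chronic and normoxia arrays of the later collection, and 128, 250.2 and 106 in those of the earlier. The chronic array was more than 2-fold above each of the other 5, and the ratio was -2.20. The promoters of these genes are shown because both hold the core letters of the hypoxia response element to which HIF binds. They cover the 250 bases before the annotated start, from RefSeq on GRCm38.p6, at chr14:45318573-45318822 on the minus strand for Ero1a and chr10:59951771-59952020 on the minus strand for Ddit4. Capitals mark ACGTG and GCGTG on either strand.
Ero1a: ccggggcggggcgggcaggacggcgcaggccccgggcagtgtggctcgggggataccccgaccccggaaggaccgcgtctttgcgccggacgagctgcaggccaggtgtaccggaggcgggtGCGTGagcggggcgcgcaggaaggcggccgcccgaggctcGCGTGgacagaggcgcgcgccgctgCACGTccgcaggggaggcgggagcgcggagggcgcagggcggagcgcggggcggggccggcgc
Ddit4: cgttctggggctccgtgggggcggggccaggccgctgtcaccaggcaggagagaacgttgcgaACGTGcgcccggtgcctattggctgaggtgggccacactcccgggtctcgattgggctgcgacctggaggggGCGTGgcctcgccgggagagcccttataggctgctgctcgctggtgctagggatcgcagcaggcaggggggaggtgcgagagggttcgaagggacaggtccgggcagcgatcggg

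These letters were common in all promoter windows. ACGTG was found in 27.2% of 342 windows of lower genes, 35% of 20 windows of higher genes and 24.3% of all 3782 windows, and GCGTG in 49.7%, 65% and 48.8%. Both were searched on both strands, and a match is a description of letters, not a binding site.

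The other HIF targets with low ratios took part in chromatin, circadian, lipid and collagen functions. Sap30, a subunit of the Sin3 corepressor complex, had 106, 454 and 88.7 units in the cyclic, chronic and normoxia arrays of the later collection, and 155, 375 and 89.8 in those of the earlier, a ratio of -2.09. Bhlhe40, a repressor that is also part of the circadian clock, had 224, 879 and 160.5 units in the cyclic, chronic and normoxia arrays of the later collection, and 199, 335 and 144 in those of the earlier, a ratio of -1.97. Hilpda, which binds and inhibits the lipase of lipid droplets, had 99.5, 339 and 75.1 units in the cyclic, chronic and normoxia arrays of the later collection, and 88.7, 258 and 83.5 in those of the earlier, a ratio of -1.77. In these 3 genes the cyclic value was within 2-fold of later normoxia and the chronic value was the highest of the 6. Mxi1, an antagonist of MYC, had a ratio of -1.46, the collagen lysyl hydroxylase Plod2 -1.39 and the histone demethylase Kdm3a -1.28. Kdm3a stood out among them at the end of the exposure, where its cyclic and chronic values were 767 and 729 units, a ratio of 0.07.

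The remaining HIF targets were placed differently. Tfrc, the transferrin receptor that imports iron, was lower by a ratio of -1.51, but its chronic value of 546 units lay below the 678 units of later normoxia, so its position resembled the other lower genes. Egln1, an oxygen-sensing enzyme that hydroxylates HIF, had 249 units in the cyclic array and 404 in the chronic array, a ratio of -0.70, and the mitophagy receptor Bnip3 had 366 and 549, a ratio of -0.59. Higd1a, a mitochondrial inner membrane protein, gave 0.11. Ndrg1 was on the other side, with 369.8 units in the cyclic array and 224 in the chronic array and 139.8 in later normoxia, a ratio of 0.72. Vegfa, the vascular growth factor, was too dim for the main set and is named for its role after its values were seen. It had 48.9 units in the cyclic array and 160.2 in the chronic array and 28.7 in later normoxia, a ratio of -1.71.

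Genes of HIF-regulated glycolysis were mostly within 2-fold. Of 12 listed genes 1 was lower and 0 higher, near the 9.35% of all genes that were lower, and their median was -0.04, which ranged from -0.09 to 0.01 over the scalings tried and so had no settled sign. Hk2, hexokinase 2, had 405 units in the cyclic array, 885 in the chronic array and 164 in the later normoxia array, and 534, 1279 and 165 at the end of cyclic hypoxia, of chronic hypoxia and of normoxia. Both reoxygenated arrays were above both normoxia arrays, and the ratio was -1.13. Slc2a1, the glucose transporter GLUT1, had 301 units in the cyclic array and 578 in the chronic array, a ratio of -0.94, and its other probe sets gave -0.80 and -0.76. The lower enzymes of the pathway were nearly equal in the 2 arrays: Tpi1 gave 0.22, Ldha 0.16, Aldoa 0.15, Pkm 0.15, Pgk1 -0.05 and Pgam1 -0.11.

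Immediate-early genes held some of the largest differences in both directions. Of 13 listed genes, 6 were lower and 1 higher, against shares of 9.35% and 0.504% over all genes, and their median was -0.51. Myc, Fos, Ccn1 and the higher gene, Egr1, had mean signals of 100.4, 121.6, 111.3 and 109.4 units. Without the higher of the compared values each mean falls under 100, so these calls entered the set through the difference counted. The chronic value was 2-fold or more above later normoxia in all 6 lower genes, and the cyclic value 2-fold or more below it in 1. Myc, a transcription factor of growth, was that gene, with 35.0 units in the cyclic array, 197 in the chronic array and 91.0 in the later normoxia array, and 92.0, 109 and 78.5 at the end of cyclic hypoxia, of chronic hypoxia and of normoxia. The ratio of Myc was -2.49, the cyclic array held the lowest and the chronic array the highest of the 6 values, and at the end of the exposure the ratio was -0.25.

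Fos, a subunit of AP-1, had 84.5, 264 and 55.7 units in the cyclic, chronic and normoxia arrays of the later collection, and 39.6, 230.4 and 55.6 in those of the earlier, a ratio of -1.64. Ccn1, a matricellular protein, had 107, 244 and 35.2 units in the cyclic, chronic and normoxia arrays of the later collection, and 35.2, 206 and 41.0 in those of the earlier, a ratio of -1.20, or -0.92 at its other probe set. In both genes cyclic hypoxia at the end of the exposure was at or below the level of normoxia, and 1 h later the cyclic value was above it but below the chronic value. Nr4a1, an orphan nuclear receptor, had a ratio of -1.15, the MAP kinase phosphatase Dusp1 -1.09, and Ier3 -1.02. Jun, the partner of Fos, was nearly equal in the 2 arrays, with 132 units in the cyclic array and 130.5 in the chronic array, after a ratio of -1.78 at the end of the exposure.

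Egr1, a zinc finger transcription factor, had the highest ratio of all 3573 genes. It had 333 units in the cyclic array, 93.1 in the chronic array and 35.2 in the later normoxia array, and 43.7, 99.0 and 52.1 at the end of cyclic hypoxia, of chronic hypoxia and of normoxia. The cyclic array held by far the highest value, 3.58-fold above the chronic array, a ratio of 1.84. At the end of the exposure the order was the opposite, with a ratio of -1.18, and Egr1 was the only gene of the set to differ 2-fold in opposite directions at the 2 collections. The normoxia arrays themselves differed at Egr1 by -0.57.

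Antioxidant genes included Txnrd1 and Srxn1 among the few higher genes. Of 21 listed NRF2 and antioxidant genes, 2 were higher, where 0.504% of all genes were, and 0 were lower. Their median was 0.23, against 0.05 over all genes. Of the 21, 13 were above 0, near the 54.5% of all genes that were. Txnrd1, the thioredoxin reductase of the cytosol, had 1255 units in the cyclic array, 523 in the chronic array and 579 in the later normoxia array, and 989, 482 and 619 at the end of cyclic hypoxia, of chronic hypoxia and of normoxia. Both cyclic arrays lay above the other 4, and the ratio was 1.26, with 1.04 at the end of the exposure. Other, dimmer probe sets of Txnrd1 gave 1.41 and 0.49. Srxn1, sulfiredoxin, which repairs oxidised peroxiredoxins, had 501, 235 and 182 units in the cyclic, chronic and normoxia arrays of the later collection, and 344, 228 and 173 in those of the earlier. The cyclic arrays were again the 2 highest, with a ratio of 1.09, and the other 3 probe sets gave 1.19, 2.38 and 0.78.

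The promoters of Txnrd1 and Srxn1 are shown as those of the 2 higher genes of the list, again 250 bases before a RefSeq start on GRCm38.p6, at chr10:82858956-82859205 on the plus strand for Txnrd1 and chr2:152105274-152105523 on the plus strand for Srxn1. Of 3 windows listed for Txnrd1, the window with most matches was taken. Capitals mark TGACNNNGC, the core of the antioxidant response element, in Txnrd1 (here on the opposite strand), and TGAGTCA, the AP-1 element, in Srxn1.
Txnrd1: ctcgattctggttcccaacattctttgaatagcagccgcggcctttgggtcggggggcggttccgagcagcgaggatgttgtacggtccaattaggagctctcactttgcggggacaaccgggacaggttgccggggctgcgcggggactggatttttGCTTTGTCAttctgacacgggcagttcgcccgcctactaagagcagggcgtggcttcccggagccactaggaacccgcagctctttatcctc
Srxn1: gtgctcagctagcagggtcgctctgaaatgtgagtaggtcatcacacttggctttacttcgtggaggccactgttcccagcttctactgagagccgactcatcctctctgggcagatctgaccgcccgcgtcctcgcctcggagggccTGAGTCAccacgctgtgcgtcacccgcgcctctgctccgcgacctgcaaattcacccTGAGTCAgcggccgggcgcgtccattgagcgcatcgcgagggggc

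TGACNNNGC was found in 12.6% of the windows of lower genes, 15% of those of higher genes and 11.3% of all windows, and TGAGTCA in 3.22%, 5% and 2.86%. Both were searched on both strands, and TGAGTCA read on the opposite strand can overlap TGACNNNGC.

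The rest of the antioxidant list lay within 2-fold. Hmox1, heme oxygenase, had 221 units in the cyclic array and 164 in the chronic array and 67.9 in later normoxia, a ratio of 0.42. Both arrays were thus above normoxia with little between them. Sqstm1, an autophagy receptor, gave 0.37, the glutathione synthesis subunits Gclm and Gclc 0.33 and -0.28, and Nfe2l2, which encodes NRF2 itself, -0.26. The malic enzyme Me1 had the lowest ratio of the list, -0.44.

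Besides Egr1 and the antioxidant genes, the 18 higher genes came from scattered functions. H1f2, a linker histone, had 791, 245 and 193 units in the cyclic, chronic and normoxia arrays of the later collection, and 634, 229.9 and 139.7 in those of the earlier. The 2 cyclic arrays were the highest of the 6, with a ratio of 1.69 and 1.45 at the next brightest probe set. Srsf5, an SR protein of splicing, had 1989 units in the cyclic array, 875 in the chronic array and 445 in the later normoxia array, and 1320.2, 739 and 513 at the end of cyclic hypoxia, of chronic hypoxia and of normoxia. All 4 hypoxic arrays exceeded normoxia and the cyclic arrays were highest, for a ratio of 1.18, while other splicing factors were mostly below 0. Tnfrsf12a, the receptor of the cytokine TWEAK, had 258, 95.6 and 77.0 units in the cyclic, chronic and normoxia arrays of the later collection, and 201, 167 and 94.9 in those of the earlier, a ratio of 1.43, with 1.77 at another probe set.

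Txnip, an inhibitor of thioredoxin and of glucose uptake, had 66.1 units in the cyclic array, 27.2 in the chronic array and 186 in the later normoxia array, and 113, 158 and 142 at the end of cyclic hypoxia, of chronic hypoxia and of normoxia. Both reoxygenated arrays were below the other 4, the chronic array furthest, and the ratio was 1.28. The other highest ratios were those of Cdc42se1, an effector of the GTPase Cdc42 (1.21), Zscan21 (1.11, with 0.18 to 0.68 at its other probe sets), Lpcat1, a lysophosphatidylcholine acyltransferase (1.09), Mcrip1 (1.09), Pigyl (1.07), Nnmt, nicotinamide N-methyltransferase (1.05), Bcat1, the cytosolic branched-chain aminotransferase (1.03), and Gemin7 of the SMN complex (1.03).

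The lowest ratio of the 3573 genes was that of Malat1. This transcript, a nuclear long non-coding RNA, had 10.4 units in the cyclic array, 113 in the chronic array and 121 in the later normoxia array, and 142, 208 and 78.6 at the end of cyclic hypoxia, of chronic hypoxia and of normoxia, a 10.9-fold lower signal (-3.44). The cyclic array was the only low one, the ratio was -2.29 with a pseudocount of 16 units in place of the floor, and 4 dimmer probe sets of Malat1 gave -2.98, -1.64, -2.04 and -0.73. Ube3a, an E3 ubiquitin ligase, had 41.0, 373 and 327 units in the cyclic, chronic and normoxia arrays of the later collection, and 217, 413 and 350.5 in those of the earlier, a ratio of -3.19. Again the cyclic array was far below the rest, with the earlier cyclic array next.

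Ogt, the enzyme that places O-GlcNAc on proteins, had 46.5 units in the cyclic array, 343 in the chronic array and 116 in the later normoxia array, and 155, 403 and 110.0 at the end of cyclic hypoxia, of chronic hypoxia and of normoxia. Here the chronic arrays were the high ones and the cyclic array was below normoxia as well, for a ratio of -2.88. Clcn3, an endosomal chloride and proton exchanger, had 38.7, 282 and 203 units in the cyclic, chronic and normoxia arrays of the later collection, and 164, 366 and 151 in those of the earlier, a ratio of -2.86, with -1.48, -1.87 and -1.55 at its other probe sets. The cohesin subunit Stag2 gave -2.76, the condensin subunit Ncapg2 -2.67, the RNA-binding protein Fmr1 -2.66, Rc3h2 -2.49, the bZIP factor Cebpg -2.40, the splicing factor Rbm25 -2.38, the chromatin remodelling ATPase Smarca5 -2.37, the nuclear matrix protein Matr3 -2.36, and the translational repressor Pum2 -2.34. In Stag2, Ncapg2, Fmr1, Rc3h2 and Matr3 the chronic value was below that of later normoxia, and the cyclic value was the lowest of the 6, with the earlier cyclic array next. Fmr1 was uneven across probe sets, with 2.40 and -1.69 at 2 dim ones. The mean signal of Smarca5, 103.5, falls under 100 without its chronic value, so its call entered the set through the difference counted.

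**Figure D1:**
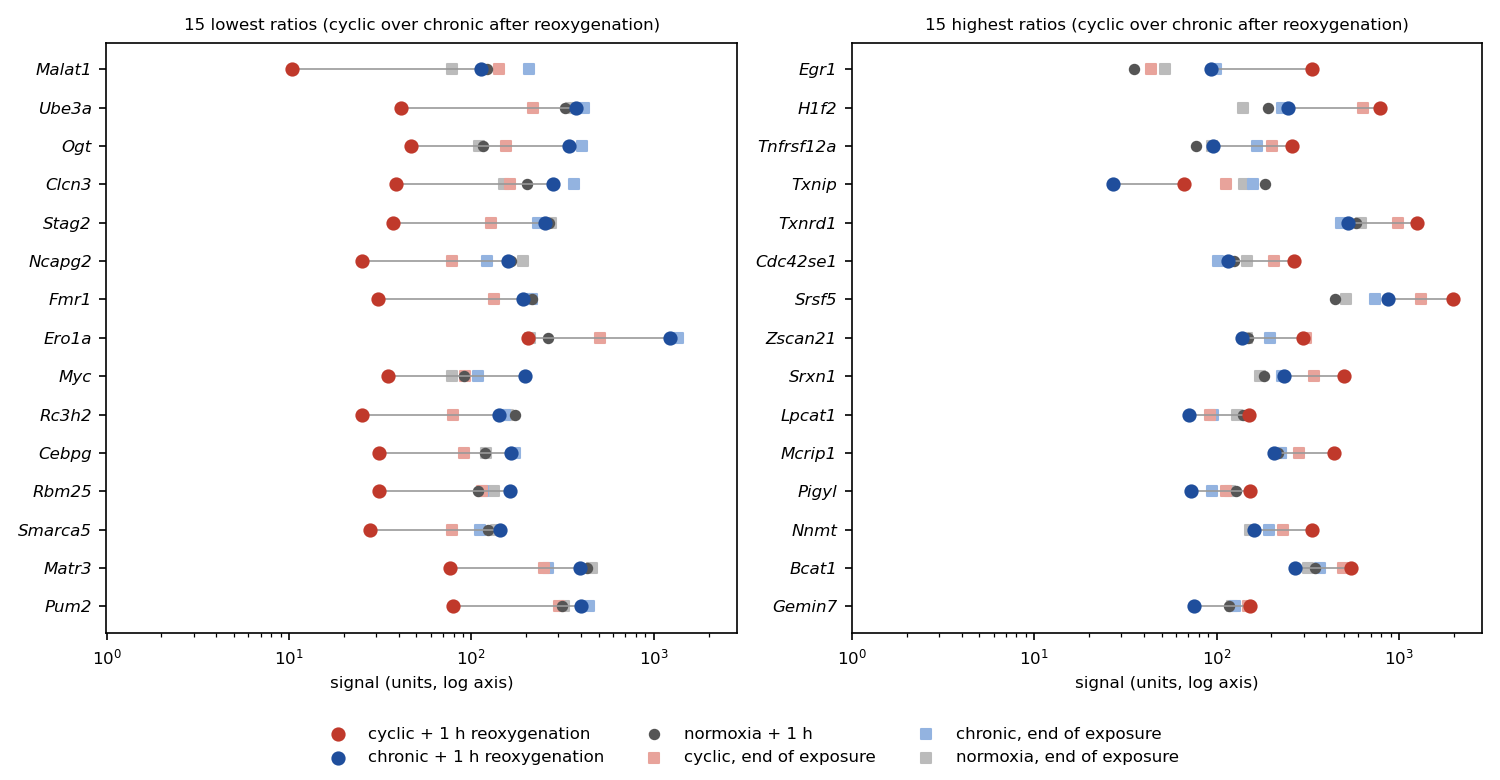
Signal in units (log axis) of the 15 genes with the lowest and the 15 with the highest ratio, 1 row per gene. Red circles are cyclic and blue circles chronic hypoxia after 1 h of reoxygenation, joined by a line, dark grey circles are normoxia + 1 h, and pale squares are cyclic, chronic and normoxia at the end of the exposure. On the left the red circle lies apart from all other points in most genes, at 10.4 units for Malat1, while Ero1a shows it at 203 units beside normoxia.

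Genes of RNA processing were mostly below 0. Of 22 SR proteins and splicing factors 7 were lower and 1, Srsf5, was higher, where 9.35% and 0.504% of all genes were, and the median was -0.35. In 6 of the 7 the cyclic value was 2-fold or more below later normoxia, and in 0 of them was the chronic value 2-fold above it. Besides Rbm25, the lowest were Rbm39 (38.2 units in the cyclic array and 161 in the chronic array, -2.07), Luc7l3 (58.2 and 195, -1.74) and the U2 snRNP component Sf3b1 (277 and 691, -1.32). The mean signal of Rbm39, 101.2, falls under 100 without its chronic value, so its call entered the set through the difference counted. SR proteins themselves were spread, with Srsf11 at -1.07, Srsf1 at -0.37, Srsf3 at -0.05 and Srsf6 at 0.54. Of 19 hnRNPs and other RNA-binding proteins 6 were lower, against the same 9.35%, and 0 higher, with a median of -0.33, led by Matr3, Syncrip (-1.67), Tia1 (-1.64) and Hnrnph1 (-1.54). Clk1, a kinase that phosphorylates SR proteins, had 61.4, 204 and 117 units in the cyclic, chronic and normoxia arrays of the later collection, and 232, 197 and 119 in those of the earlier, a ratio of -1.73.

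Of 15 listed melanocyte genes 2 were lower and 0 higher, with a median of -0.07. Those calls are too few to set against the 9.35% of all genes that were lower. Mitf had 635 units in the cyclic array, 2225 in the chronic array and 2568 in the later normoxia array, and 1256, 2820.1 and 2366 at the end of cyclic hypoxia, of chronic hypoxia and of normoxia. The cyclic arrays were the 2 lowest of the 6, and the ratio was -1.81, or -2.73 at a dimmer probe set. Myo5a, the myosin that carries melanosomes, had 99.4 units in the cyclic array and 264 in the chronic array, a ratio of -1.41 and of -1.19 at another probe set. The transcription factors Pax3 and Sox10 gave -0.73 and -0.53, and the melanocortin receptor Mc1r -0.73. The pigment enzymes and melanosome proteins were nearly level, with Tyrp1 at -0.23, Dct at -0.12, Tyr at -0.07 and Pmel at 0.06, and the transporter Slc45a2 and the receptor Gpr143 were at 0.46 and 0.65.

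Genes named for invasion and metastasis, the theme of the series' title, gave 4 lower and 0 higher of 12, where 9.35% of all genes were lower. Their median was -0.46, against 0.12 for the same genes at the end of the exposure. The integrin subunit Itgav had 225, 535 and 409 units in the cyclic, chronic and normoxia arrays of the later collection, and 383, 368 and 569.6 in those of the earlier, a ratio of -1.25. The sheddases Adam17 and Adam10 gave -1.25 and -1.08, and the hepatocyte growth factor receptor Met -1.17. In all 4 the chronic value was within 2-fold of later normoxia.

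Of 30 genes of the unfolded protein and integrated stress response, 5 were lower and 0 higher, the median was 0.06 and 19 were above 0. Over all genes 9.35% were lower, the median was 0.05 and 54.5% were above 0. The median of the list thus lay near the background, while its 5 lower genes of 30 are a larger share than 9.35%. Ddit3, the transcription factor CHOP, had 243, 719.5 and 177 units in the cyclic, chronic and normoxia arrays of the later collection, and 156, 420.1 and 137 in those of the earlier, a ratio of -1.57. The endoplasmic chaperone Hsp90b1 had 306 units in the cyclic array and 845 in the chronic array (-1.47, and -1.41 at another probe set), and Dnajc3 gave -1.46. A probe set of Dnajc3 nearly as bright gave only -0.40, and dimmer ones gave values between -1.20 and -0.75. Of 14 heat shock chaperones 2 were lower and 0 higher, too few calls to set against the 9.35% of all genes, with a median of -0.22. Chordc1 had 37.8 units in the cyclic array and 151 in the chronic array (-1.99), and Hsp90aa1 had 558 and 1514 (-1.44).

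Cell cycle lists fell on both sides of the 9.35% of all genes that were lower, with few calls in each. Of 19 genes of mitosis and the spindle 3 were lower and 0 higher (median -0.26): Top2a, a topoisomerase, had 152 units in the cyclic array and 521 in the chronic array (-1.77), Nusap1 gave -1.59 and the checkpoint protein Mad2l1 -1.10. Nusap1, with a mean signal of 101.1, falls under 100 without its chronic value, so it too entered the set through the difference counted. Of 20 genes of DNA replication and nucleotide synthesis 0 were lower and 0 higher (median -0.20), with Mcm4 lowest at -0.57 and the flap endonuclease Fen1 highest at 0.78. Among 6 p53 targets, Trp53inp1 (-2.12) and cyclin G1, Ccng1 (-1.24), were lower, with too few genes in the list to set against that share. Other probe sets of Ccng1 gave -0.18 and -1.24.

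Several lists of translation and energy metabolism lay slightly above the median of all genes. Over all genes 54.5% were above 0. Genes of 400 to 800 units had a median of 0.16, and the shortest of 5 groups by genomic span 0.22. The lists were not set against genes of like signal or span. Of 67 mitochondrial ribosomal proteins 54 were above 0, with a median of 0.32, and 0 were 2-fold higher or lower. The highest were Mrps18a (0.85), Mrps16 (0.78) and Mrpl20 (0.78). Nuclear-coded genes of oxidative phosphorylation had a median of 0.25, with 25 of 32 above 0 and 0 past 2-fold. Among these, Atp5a1 of the ATP synthase gave 0.49, Sdhd of complex II 0.54, and Ndufs1 of complex I was lowest at -0.80. Of 12 aminoacyl-tRNA synthetases 11 were above 0, with a median of 0.44, led by Sars (1121 units in the cyclic array and 651 in the chronic array, 0.79) and Iars (389 and 227, 0.78). Another probe set of Iars, nearly as bright, gave only 0.08 (354 and 334 units), and another of Sars gave 0.60. At the end of the exposure the medians of these 3 lists were -0.06, -0.05 and 0.07. Proteasome subunits had a median of 0.16 with 1 of 34 lower, Psmc6 (-1.15). Cytosolic ribosomal proteins had a median of -0.06 with 0 of 39 past 2-fold.

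**Figure D2:**
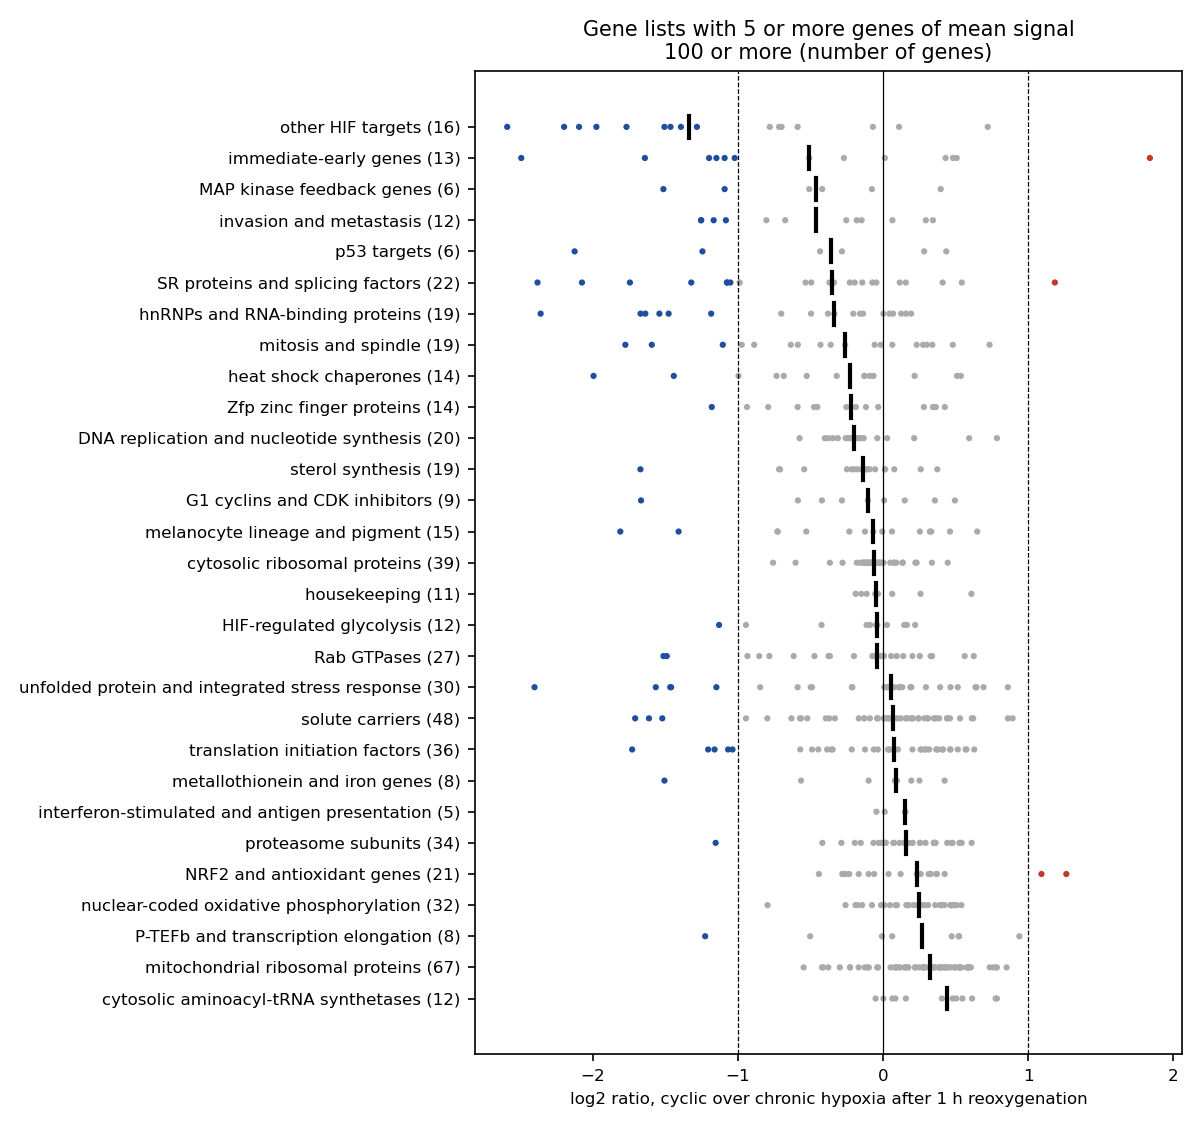
Log2 ratio of cyclic over chronic hypoxia after 1 h of reoxygenation (horizontal axis) for every gene of the lists with 5 or more genes in the set, 1 row per list, ordered by median. Each point is a gene, blue where 2-fold or more lower and red where 2-fold or more higher, and black bars are medians. Other HIF targets lie lowest at a median of -1.34, and aminoacyl-tRNA synthetases highest at 0.44.

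The remaining lists are to be read against the 9.35% of all genes that were lower, which some of them exceeded on few calls. Of 36 translation initiation factors 5 were lower and 0 higher, among them Eif5 (-1.73) and Eif1a (-1.20), around a median of 0.08 whose sign changed between scalings. Of 6 MAP kinase feedback genes 2 were lower, Spred1 (-1.51) and Dusp1, and of 19 sterol synthesis genes 1, Idi1 (-1.67). Among 3 NF-kB genes 0 passed 2-fold at the probe set used. Nfkbia, the inhibitor of NF-kB, gave 0.67 at its brightest probe set, but 1.13 and 1.32, both past 2-fold, at the next brightest and 0.46 at a dim one. Hexim1, an inhibitor of the elongation factor P-TEFb, gave 0.94, and the elongation scaffold Aff4 -1.22. The 11 housekeeping genes gave 0 calls, with ratios from -0.19 (Ywhaz) to 0.61 (Gusb).

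The comparison at the end of the exposure used other arrays, so both collections can be set side by side. Over all genes, 1.01% were lower at the end and 9.35% after reoxygenation. Of the genes lower after reoxygenation, 20 were also lower at the end, which is 5.99% of 334 and 55.6% of 36. They included Ero1a, Ogt, Hilpda, Mxi1, Ddit3, Fos, Sap30, Hk2 and Mitf. Higher at both were 3 genes, H1f2, Txnrd1 and Cdc42se1, which is 16.7% of 18 and 60% of 5. Cdc42se1 only just passed at the end (1.005), and its dimmer probe set gave 0.74 after reoxygenation and 0.17 at the end. Over all genes, 0.14% were higher at the end and 0.504% after reoxygenation. Most genes of the tail differed little at the end: the median end ratio of the 334 was -0.33, and 83.5% of them had a ratio under 0 there, where 49.7% of all genes did. Across 3573 genes, which are not independent of each other, Pearson's r between the 2 ratios was 0.45.

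**Figure D3:**
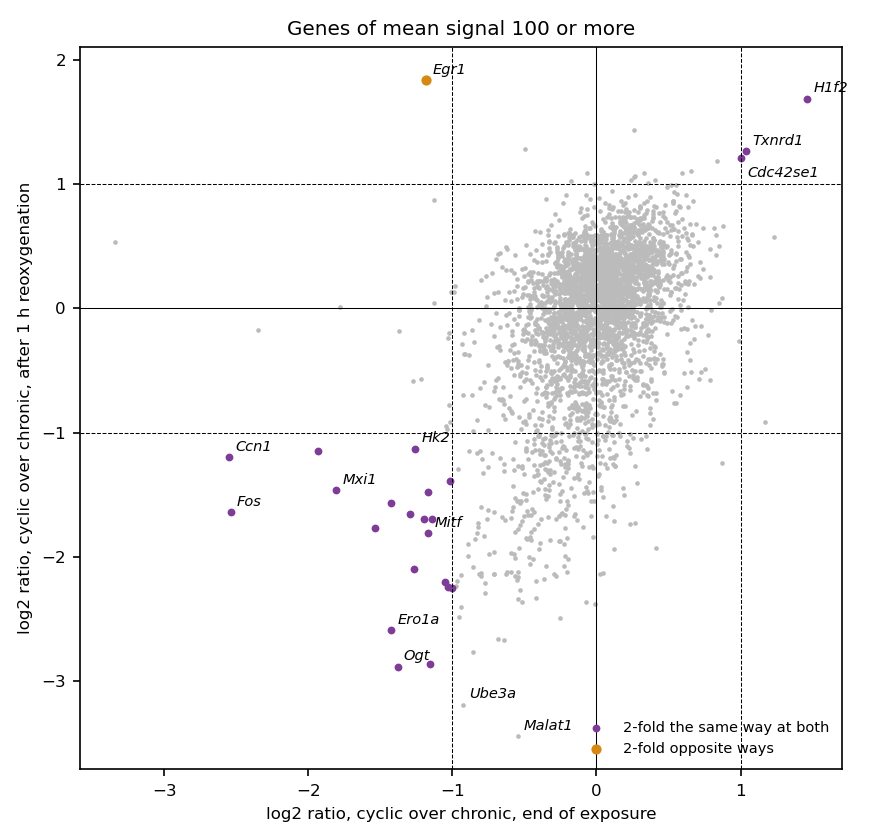
Log2 ratio of cyclic over chronic hypoxia after 1 h of reoxygenation (vertical axis) against the same ratio at the end of the exposure (horizontal axis) for 3573 genes, each from its own 2 arrays. Purple points differ 2-fold in the same direction at both collections (20 lower, 3 higher), the orange point is Egr1 at 1.84 and -1.18, and dashed lines mark 2-fold. Most of the lower tail, with Malat1 and Ube3a at its end, lies inside the 2-fold lines of the horizontal axis.

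Genes that were 2-fold apart at the end and no longer so 1 h later were named after their values were seen. Hspa1b, an inducible chaperone, had ratios of 0.54 after reoxygenation and -3.34 at the end, and Jun 0.01 and -1.78. The 0.54 of Hspa1b is a ratio of dim values, 52.0 units in the cyclic array and 35.8 in the chronic array. Hspa1b passed the signal limit only through its 532 units at the end of chronic hypoxia. Bnip3 and Slc2a1 passed 2-fold only at the end, with ratios of -1.27 and -1.04 there. The difference between the collections was not tested.

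Lower genes also outnumbered higher genes at mean signals of 30 to 100. Among 2476 genes with a mean signal of 30 to 100, 46 were higher (1.86%) and 370 lower (14.9%). The lowest were Fbxl20, an F-box protein (3.03 units in the cyclic array and 41.7 in the chronic array, -3.78), Zfp638 (-3.55), the RAS to RAF scaffold Shoc2 (-3.08), Efcab7 (-3.06) and Ak4. With a pseudocount of 16 units the ratios of the first 4 were -1.60, -1.71, -2.08 and -1.93, and that of the metal-responsive factor Mtf1 1.27. Ak4, a mitochondrial adenylate kinase and HIF target, had 26.2 units in the cyclic array, 208 in the chronic array and 15.4 in the later normoxia array, and 55.7, 259 and 13.0 at the end of cyclic hypoxia, of chronic hypoxia and of normoxia. The chronic arrays were the high ones, the cyclic array was above normoxia, and the ratio was -2.99, or -2.30 at the next brightest probe set. The highest were Mtf1 (1.91 with the floor, and -0.63 at another probe set), the kinase Map3k11 (1.69), Manbal (1.56), Osgin1, a gene of the oxidative stress response (1.51), and the chemokine Cxcl10 (1.51). In the wider set of 7746 genes past the 40th percentile of mean signal, 194 were higher (2.5%) and 975 lower (12.6%). Below 30 units this no longer held: of 6344 genes, 1078 were higher (17%) and 896 lower (14.1%).

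Other probe sets of the same genes gave the same direction for most lower genes. For 84 of the 334 lower genes there were 103 other probe sets with a mean signal of 100 or more, of which 64 were also 2-fold lower and 2 were above 0, with a median of -1.24. For 4 of the 18 higher genes there were 5, of which 3 were 2-fold higher and 5 above 0. Among 1261 other probe sets of genes in neither class, 3.49% were lower. Probe sets of a gene share the array and the RNA, so they bear on the probes and not on the conditions.

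The lower genes tended to cover more of the genome. The median genomic span from start to end of the gene was 42.1 kb for the 334 lower genes, 8.20 kb for the 18 higher genes and 19.0 kb for 3572 genes with a span. With genes ordered by span in 5 groups of equal size, 3.08%, 5.18%, 5.46%, 12.7% and 20.3% of genes were lower, and the median ratio lay between 0.22 in the shortest group and -0.23 in the longest. At the end of the exposure the shares were 1.68%, 0.560%, 0.700%, 0.980% and 1.12%. Longer genes were also dimmer, with a median signal of 192 units in the longest group and 405 in the shortest. Within genes of 100 to 200 units the share in the shortest and the longest group was 4.37% and 23.1%, within 200 to 400 units 5.85% and 19.8%, and above 400 units 1.11% and 12.5%. Span was chosen as a feature with the ratios known, and its part in the difference was not tested.

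**Figure D4:**
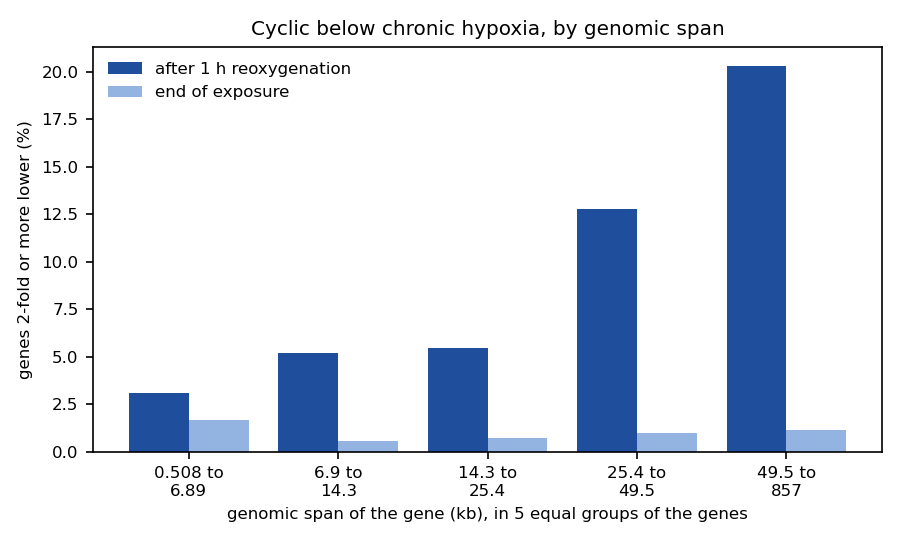
Share of genes 2-fold or more lower in cyclic than in chronic hypoxia (%, vertical axis) in 5 equal groups of the 3572 genes ordered by genomic span in kb (horizontal axis), after 1 h of reoxygenation (dark bars) and at the end of the exposure (light bars). The dark bars reach 20.3% in the longest group, against 3.08% in the shortest, and the light bars stay between 0.560% and 1.68%.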

How the data were processed

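Gene expression was measured on 6 Affymetrix arrays of B16 cells, 1 per group, with groups taken from the sample titles. The deposited values are signal intensities on a linear scale for 22690 probe sets. The submitters' processing notes name GCOS, and its version, algorithm and detection calls are not given in the sources used here. The trimmed mean of each array, leaving out 2% at each end, was 100 units to 3 digits, so the authors' scaling of the deposited intensities was kept.

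Values under 2.1 units were set to 2.1, and the log2 ratio of cyclic over chronic hypoxia after reoxygenation was taken. The 64 control probe sets were left out. Platform annotation named 1 gene for 20393 probe sets, several for 691 and none for 1606, and RefSeq gave current symbols for 20364. Work was done in Python 3.11.15 with numpy 2.4.6, pandas 2.3.3, statsmodels 0.14.6 (loess) and matplotlib 3.10.9, and the counting was checked on simulated arrays. With 1 array per group no test, p-value or SD over arrays was computed, and no batch could be examined.

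Members and the 41 gene lists were chosen with earlier results of these data known. Named genes were the 15 highest and 15 lowest ratios, the 5 highest and 5 lowest at mean signals of 30 to 100, up to 6 in each direction that differed 2-fold at both collections, genes opposite at the collections, and up to 4 of each list with the largest ratios. Further list members are given as examples. Genomic spans and promoters came from RefSeq on GRCm38.p6. Promoter windows were found for 2976 of the 3573 genes. Other scalings, floors, filters and thresholds were tried as alternatives.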

Additional observations from a re-analysis of the deposited data

Results flagged for a closer look

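Egr1 was the only gene of mean signal 100 or more that differed 2-fold in opposite directions between cyclic and chronic hypoxia at the 2 collections. Its log2 ratio was 1.84 after reoxygenation and -1.18 at the end of the exposure. Only its value after cyclic hypoxia and reoxygenation, 333 units, exceeded 100, so it passed the signal limit through that array. The difference between the collections was not tested, since each ratio rests on 1 array a side. A single probe set measured Egr1, so no other probe set bears on it.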

How the results depend on the processing

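No paired analysis was possible because each group holds 1 array and the labels give no shared replicate numbers. The main counts were 18 genes higher and 334 lower. Quantile normalization gave 21 and 288, median centring 21 and 301, loess 17 and 335, a floor of 10 units 18 and 334, and the median over probe sets 19 and 319. A pseudocount of 16 units in place of the floor gave 9 and 282. A mean signal of at least 50 gave 47 and 562, of at least 200 gave 8 and 154, past the 40th percentile 194 and 975, and no filter 1142 and 1600, where higher genes are a far larger share. At 1.5-fold the counts were 241 and 591, and at 3-fold 2 and 128. Of 980 values of 165 named genes under alternatives, 934 moved by less than 0.21, the SD of the normoxia pair, 46 moved by more, and the only sign changes were at Mnt and B2m, whose ratios lay near 0. For 37 gene lists 248 of 259 medians moved by less and 11 by more. Medians near 0 changed sign for HIF-regulated glycolysis, G1 cyclins, housekeeping genes, translation initiation factors and Rab GTPases, and that of interferon-stimulated genes turned to -0.05 past the 40th percentile. Precision rests on 1 array per group, and for dim genes on signal over background.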

Other observations

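The share of lower genes differed between chromosomes, which were looked at with the ratios known. Of 99 genes of mean signal 100 or more on chromosome X, 20 were lower after cyclic hypoxia (20.2%), and of 240 on chromosome 7, 9 were (3.75%), where 9.35% of all such genes were lower. Among the named genes, Ogt, Stag2 and Fmr1 lie on chromosome X. The GC content of the 250 bases before the start had a median of 64.4% in 342 windows of lower genes, 60.2% in 20 windows of higher genes and 60.8% in 3782 windows of all genes.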
